A study of Mus musculus with 12 samples.

Results

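The genes described here are the water channels of the kidney and the receptor that controls them. They are the aquaporin genes Aqp1, Aqp2, Aqp3, Aqp4, Aqp6, Aqp7 and Aqp11 and the vasopressin V2 receptor gene Avpr2. They were taken by gene symbol from the authors' mouse expression table, which held all 8 of them among 45777 genes, and all 8 passed the filter on low counts. Aquaporins are membrane pores for water, and some of them also pass glycerol. In the collecting duct, vasopressin binds the V2 receptor on the basolateral side of principal cells and raises cAMP. Protein kinase A then drives vesicles with aquaporin-2 to the apical membrane, and water leaves the cell through aquaporin-3 and aquaporin-4 on the basolateral side. Aquaporin-1 carries water across the proximal tubule and the thin descending limb, aquaporin-7 passes water and glycerol in the straight proximal tubule, aquaporin-11 lies in the endoplasmic reticulum of proximal tubule cells, and aquaporin-6 lies in vesicles of intercalated cells.

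The study profiled kidneys of male wild-type C57BL/6 mice by bulk RNA sequencing in 4 groups of 3 libraries. Normal mice were given neither cisplatin nor vesicles, and no injections are listed for them. Cisplatin, a platinum drug toxic to the renal tubule, went into the peritoneum of all other mice at 9 mg/kg in 5 weekly cycles. Afterwards a vein injection was given every 3 days, 5 in all, with buffered saline alone (PBS group), with 200 µg of iMSC extracellular vesicles (EV200 group) or with 400 µg of them (EV400 group). The labels do not spell out iMSC. Kidneys were taken 3 days after the last treatment. The labels give neither the age of the mice, nor the hour of collection, nor their water intake, and they call the 3 libraries of a group biological replicates without stating that each is a separate mouse. P-values therefore measure the spread between these libraries. PBS against normal sets cisplatin plus injections against neither, and these cannot be told apart.

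Promoter windows of Aqp2 and Aqp6 are printed because these genes lie close together on chromosome 15 and encode closely related channels of the neighbouring cell types of the collecting duct. Each window runs from 250 bases before to 50 bases after a start site, 5′ to 3′ on the plus strand, from RefSeq on GRCm38.p6. The windows are chr15:99578806-99579105 for Aqp2 and chr15:99600950-99601249 for Aqp6. The Aqp2 window is placed at the start of the gene's span, at 99579056. The Aqp6 window lies wholly inside its gene's span, 99598468 to 99605478, at an internal start site. Capitals mark the E-box CACGTG and, in Aqp2, the cAMP response element half-site TGACG read on the other strand.
Aqp2: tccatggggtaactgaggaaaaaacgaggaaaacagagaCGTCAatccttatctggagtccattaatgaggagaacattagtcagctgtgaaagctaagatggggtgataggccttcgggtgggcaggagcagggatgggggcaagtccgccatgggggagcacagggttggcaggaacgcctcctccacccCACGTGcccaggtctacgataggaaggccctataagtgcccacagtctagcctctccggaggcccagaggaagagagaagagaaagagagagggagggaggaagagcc
Aqp6: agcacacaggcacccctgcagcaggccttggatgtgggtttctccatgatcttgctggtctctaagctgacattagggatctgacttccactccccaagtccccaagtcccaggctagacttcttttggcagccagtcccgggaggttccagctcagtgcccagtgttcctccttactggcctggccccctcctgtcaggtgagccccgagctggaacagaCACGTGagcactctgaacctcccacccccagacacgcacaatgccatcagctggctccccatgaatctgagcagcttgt

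Windows were found for 7 of the 8 genes, with 2 for Aqp7. The search covered both strands for the half-site TGACG, which is also part of the full element TGACGTCA, and for the E-box CACGTG, the GATA letters AGATAA and the tonicity element TonE. The half-site was found in the Aqp2 window alone, at -211 from the start, and in 20.9% of 32544 windows of mouse genes. The E-box was found in Aqp2 at -58 and in Aqp6 at -29 from its internal start site, against 7.17% of all windows. The GATA letters stood in Aqp2 and in 1 Aqp7 window (11.2% of all windows), and TonE in the same Aqp7 window (4.97%). The full element was in none of the 8 windows and in 1.8% of all windows. A match describes letters and not a bound site.

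Library totals lay between 46.6 and 62.1 M counts, and the lowest count of any of the 8 genes was 423, for Avpr2. Levels below are CPM, counts scaled to the library's total over the genes tested with TMM factors. Proximal tubule markers were high in every library, with Slc34a1, the sodium phosphate cotransporter gene, at 3176 CPM or more. Some libraries stood apart. PBS 2 and EV200 3 lay at 83.4 and 60.5 on the first principal component, which carried 43.4% of the variance, while EV200 1 and EV200 2 lay at -18.7 and -8.6. EV400 3 lay at -52.1, near the normal libraries, and alone on the second component, at -51.5. EV400 1 and EV400 2 lay at 1.1 and 7.9 on the first. Fat cell genes were seen in PBS 3, where Adipoq reached 7.668 CPM, against at most 0.1243 CPM in any other library. In bulk tissue, fewer cells of a type and less RNA per cell cannot be told apart.

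Per length, Aqp1 led the 8 genes in every library. On the authors' TPM scale, which divides by transcript length and library total, it stood at 529.4 ± 38.4 TPM in normal kidneys (SD, n = 3). Aqp3 and Aqp2 followed at 85.91 ± 5.49 and 80.43 ± 10.8 TPM, which overlapped, and Aqp11 at 52.54 ± 1.16 TPM. Aqp7 had 18.04 ± 1.12, Aqp6 13.64 ± 2.51, Aqp4 10.48 ± 3.08 and Avpr2 8.746 ± 0.381 TPM, and the libraries of Aqp4 overlapped with those of Aqp6 and Avpr2. In PBS the order of the means differed, with Aqp2 above Aqp3, Aqp6 at 21.62 ± 4.28 above Aqp7 at 18.82 ± 0.632, Avpr2 at 13.13 ± 4.38 and Aqp4 last at 5.305 ± 1.49 TPM. The PBS libraries of Aqp2 and Aqp3 overlapped, as did those of Aqp6 and Aqp7. Within each PBS library Aqp2 lay above Aqp3, while in PBS 3 Aqp7 lay above Aqp6. The other aquaporins were scarce. Aqp8 lay between 0.324 and 1.88 TPM, Aqp9, a glycerol channel of liver and white blood cells, between 0.026 and 0.566, and Aqp5 between 0.048 and 0.404, while Mip and Aqp12 were listed at 0 in all 12 libraries.

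**Figure D1:**
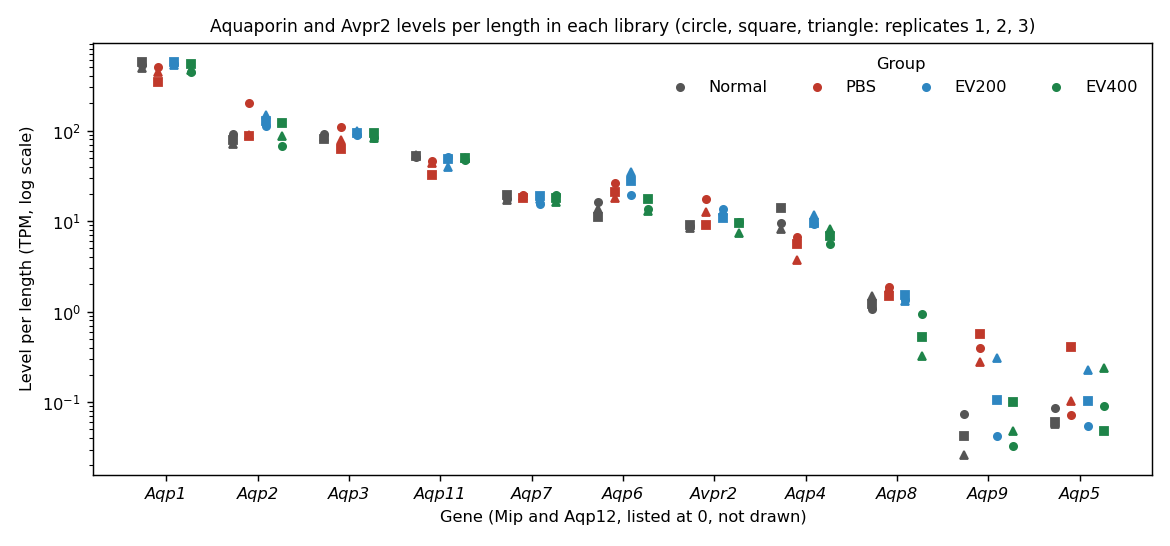
Authors' TPM values (log axis) of the 8 genes and of Aqp8, Aqp9 and Aqp5 in each of 12 libraries, with colour for the group and shape for the replicate number. Aqp1 lies highest in every library, from 347.381 to 566.183 TPM, and the 3 genes at the right lie below 2 TPM.

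A single gene of the 8, Aqp4, passed the test after cisplatin, and it fell. The edgeR quasi-likelihood test, Benjamini-Hochberg adjusted over all 18730 genes tested, called 1 of 8 in PBS against normal, beside 2.74% of all genes. The count at an unadjusted p under 0.05 was 4 of 8, beside 29.8% of all genes. The PBS and normal libraries did not overlap in 4 of 8 genes, beside 40.3% of all genes. Of these, 3 were lower in PBS, beside 20% of all genes, and 1 was higher, beside 20.3%. The median log2 fold change of the 8 was -0.24, against 0.00 over all genes tested. DESeq2 called 4 of 8 (Aqp1, Aqp4, Aqp6 and Aqp11), beside 15.1% of all genes, and limma-voom with quality weights 4 of 8 (Aqp1, Aqp4, Aqp11 and Avpr2), beside 32.9%.

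**Figure D2:**
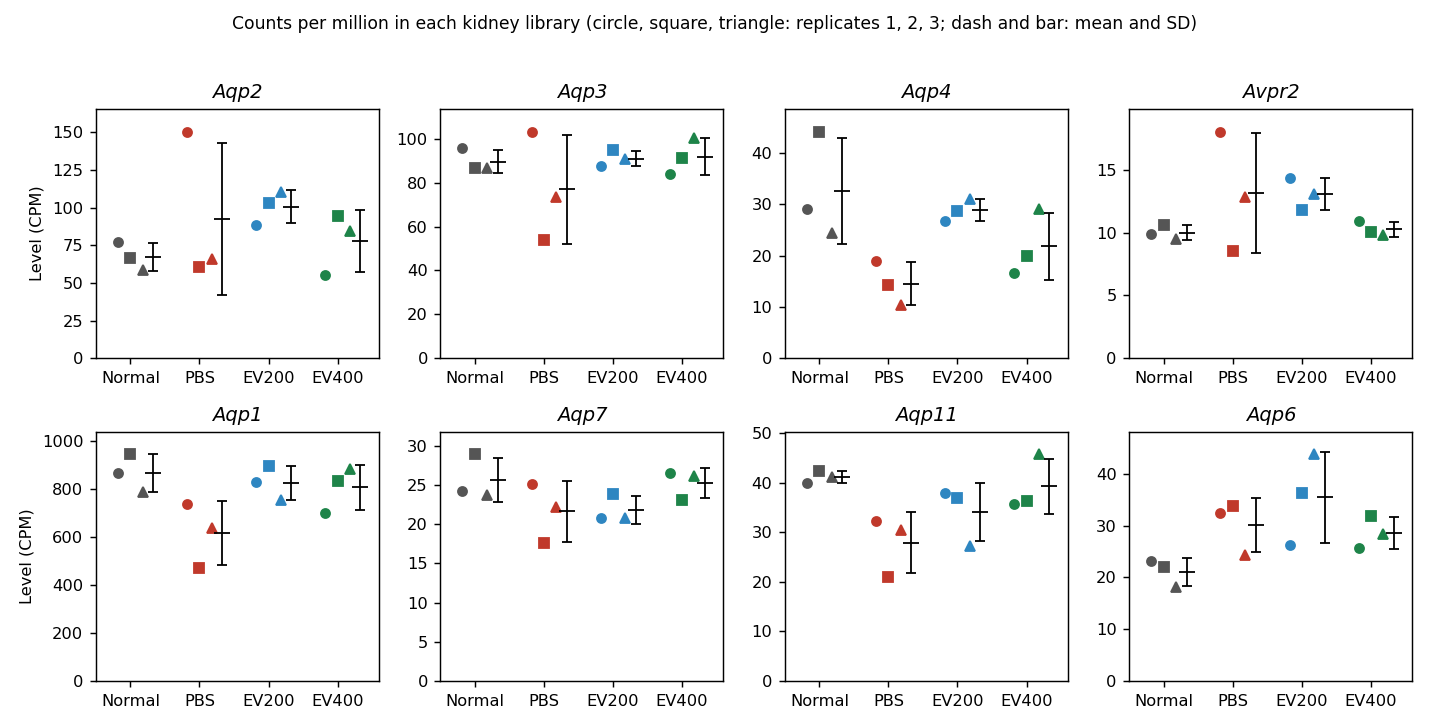
CPM of each gene in every library, with the group mean and SD beside the points (n = 3). For Aqp4 the PBS libraries, at 10.43 to 18.91 CPM, lie below every normal and EV200 library, and for Aqp2 the PBS 1 library, at 150.6 CPM, lies above all others.

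The receptor comes first in the pathway. Avpr2 encodes the Gs-coupled receptor that carries the antidiuretic signal of vasopressin. It stood at 9.864, 10.61 and 9.445 CPM in normal kidneys, at 18.04, 8.534 and 12.83 in PBS, at 14.32, 11.76 and 13.04 in EV200 and at 10.91, 10.05 and 9.806 in EV400. PBS 1 was the highest and PBS 2 the lowest of the 12 libraries, so the PBS libraries straddled the normal ones. The log2 fold change of PBS against normal was 0.39 (SE 0.20, edgeR adjusted p = 0.214), and it was 0.10 without PBS 1 and 0.64 without PBS 2 (adjusted p = 0.704 and 0.11). All EV200 libraries lay above all normal libraries and above all EV400 libraries, but neither difference passed the test, with edgeR adjusted p of 0.447 and 0.793. In the order PBS, EV200, EV400, normal, the means were 13.13, 13.04, 10.26 and 9.974 CPM.

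Avpr2 shares ground with another gene. Arhgap4, a gene of blood cells, lies on the opposite strand, and its exons cover 2347 of the 2886 exon bases of Avpr2 in GENCODE vM21. In the RefSeq table the overlap of both genes is 77 bases. The library kit keeps the strand, but the strand setting of the count is not given in the sources used here, so reads of both genes could not be told apart with certainty. Arhgap4 itself averaged 4.22 ± 0.329 CPM in normal, 8.788 ± 1.02 in PBS, 6.694 ± 2.24 in EV200 and 5.215 ± 1.75 in EV400 (SD, n = 3). Its part in the Avpr2 values was not tested.

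Aqp2 encodes the channel that vasopressin moves to the apical membrane (chromosome 15, 99579056 to 99584545, GRCm38). It stood at 77.08, 66.63 and 58.62 CPM in normal, at 150.6, 60.57 and 65.82 in PBS, at 88.44, 103.1 and 110.1 in EV200 and at 55, 94.18 and 84.24 in EV400. PBS 1 stood far above PBS 2 and PBS 3, which lay within the normal range. The log2 fold change of PBS against normal was 0.45 (SE 0.30, edgeR adjusted p = 0.33). Without PBS 1 it was -0.10, so the direction rests on 1 library, and without PBS 2 it was 0.69 (adjusted p = 0.268). The EV200 libraries lay above every normal library, at a log2 fold change of 0.58 (95% interval -0.09 to 1.24) that did not pass the test (edgeR adjusted p = 0.446). Against PBS, Aqp2 had 0.12 in EV200 (95% interval -0.53 to 0.78) and -0.25 in EV400 (-0.91 to 0.41), intervals that hold changes in either direction. Means ran in the order EV200, PBS, EV400 and normal, and neighbours in that order overlapped.

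Aqp3 encodes the basolateral channel for water and glycerol of the same cells (chromosome 4, 41092724 to 41098183). It stood at 95.63, 86.79 and 86.46 CPM in normal, at 103.3, 54 and 73.32 in PBS, at 87.75, 94.69 and 90.55 in EV200 and at 83.72, 91.36 and 100.5 in EV400. The normal, EV200 and EV400 libraries shared a narrow range, while the PBS libraries spanned the highest and the lowest of all 12. The log2 fold change of PBS against normal was -0.22 (95% interval -0.60 to 0.16, edgeR adjusted p = 0.409). Without PBS 1 it was -0.50 and passed the test (edgeR adjusted p = 0.0409), and without PBS 2 it was -0.01 (adjusted p = 0.974). Between the doses it was 0.01 (95% interval -0.37 to 0.40), and no neighbours in the order of the group means differed beyond their spread.

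Aqp4 encodes a basolateral channel of principal cells, found in mouse also in the straight proximal tubule, and known best from astrocytes. It stood at 29.09, 44.24 and 24.43 CPM in normal, at 18.91, 14.27 and 10.43 in PBS, at 26.81, 28.76 and 31.1 in EV200 and at 16.54, 19.88 and 29.07 in EV400. Every PBS library lay below every normal and every EV200 library, while EV400 overlapped with all 3 other groups. The means were 32.59 ± 10.4, 14.54 ± 4.25, 28.89 ± 2.15 and 21.83 ± 6.49 CPM (SD, n = 3). Aqp4 fell after cisplatin by 1.17 on the log2 scale (SE 0.26), a ratio of 0.4454 to normal, with an edgeR Benjamini-Hochberg adjusted p of 0.0467. Leaving out normal 1, 2 or 3 ended the call, with edgeR adjusted p of 0.136, 0.16 and 0.131, as did leaving out PBS 2 (0.15) or PBS 3 (0.0811). Without PBS 1 it held, at -1.40 (adjusted p = 0.0366). Over the 5 omissions that ended the call, the log2 fold change lay between -1.33 and -0.88, and by limma on log2(TPM + 0.1) it was -0.97 (adjusted p = 0.058).

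In EV200, Aqp4 was near its normal level. Its log2 fold change against PBS was 0.99 (SE 0.26, 95% interval 0.42 to 1.56), which had an unadjusted p of 0.00251 and an edgeR adjusted p of 0.629. DESeq2 and limma-voom called it, with adjusted p of 0.0488 and 0.0241, in a comparison where they called 0.24% and 8.8% of all genes. Against normal, EV200 had -0.17 (95% interval -0.73 to 0.39, edgeR adjusted p = 0.824). In EV400 the change against PBS was 0.59 (SE 0.26, edgeR adjusted p = 0.205), with EV400 3 alone inside the normal range, and without EV200 3 and EV400 3 it was 0.34. EV400 against EV200 had -0.41 (95% interval -0.97 to 0.16, edgeR adjusted p = 0.804), so a difference between the doses was not shown.

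Markers of the cells that hold Aqp4 were set beside it. The summed level of 10 principal cell markers ran from 374.3 to 392.5 CPM in normal, 405.9 to 499.9 in PBS, 426.1 to 447.4 in EV200 and 372.6 to 407.6 in EV400. It was higher in every PBS library than in any normal one, but this rests on Npnt, a matrix protein gene. Without Npnt, the other 9 summed to 257.4, 250.3 and 264.3 CPM in normal and to 300.4, 222.8 and 262.8 in PBS, which overlap. In PBS, 2 of these 10 rose (Gata3 and Npnt), beside 1.84% of all genes, and 1 fell (Tmem45b), beside 0.902%. The defining markers Fxyd4, Hsd11b2 and Scnn1b were detected in every library. The summed level of 8 straight proximal tubule markers ran from 8560 to 9425 CPM in normal and from 5335 to 7089 in PBS, with 5977 to 8049 in EV200 and 6914 to 8321 in EV400. Relative to the principal cell sum, Aqp4 was 0.0756, 0.118 and 0.0623 in normal and 0.0378, 0.0351 and 0.0252 in PBS, and relative to the straight tubule sum 0.0034, 0.00469 and 0.00278 in normal and 0.00267, 0.00267 and 0.0016 in PBS. Both ratios were lower in every PBS library than in any normal one, the second by a narrow margin. Against the sum without Npnt, Aqp4 was 0.113, 0.177 and 0.0924 in normal and 0.063, 0.0641 and 0.0397 in PBS, again without overlap. A lower ratio to the principal cell sum was not particular to Aqp4. Aqp3 had 0.249, 0.232 and 0.22 in normal and 0.207, 0.133 and 0.177 in PBS, also without overlap. For Aqp3 the ratio without Npnt was not taken. These ratios are descriptions chosen after the levels were seen. Skeletal muscle markers, another source of Aqp4, summed to at most 0.1868 CPM, with Ckm at 0 in all 12 libraries.

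The balance of the apical channel Aqp2 to the basolateral Aqp4 was described by their ratio. In CPM, it was 2.65, 1.51 and 2.4 in normal and 7.96, 4.25 and 6.31 in PBS. It was 3.3, 3.58 and 3.54 in EV200 and 3.32, 4.74 and 2.9 in EV400. Every library of the 3 cisplatin groups lay above the normal libraries. PBS was highest, with an overlap with EV400.

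**Figure D3:**
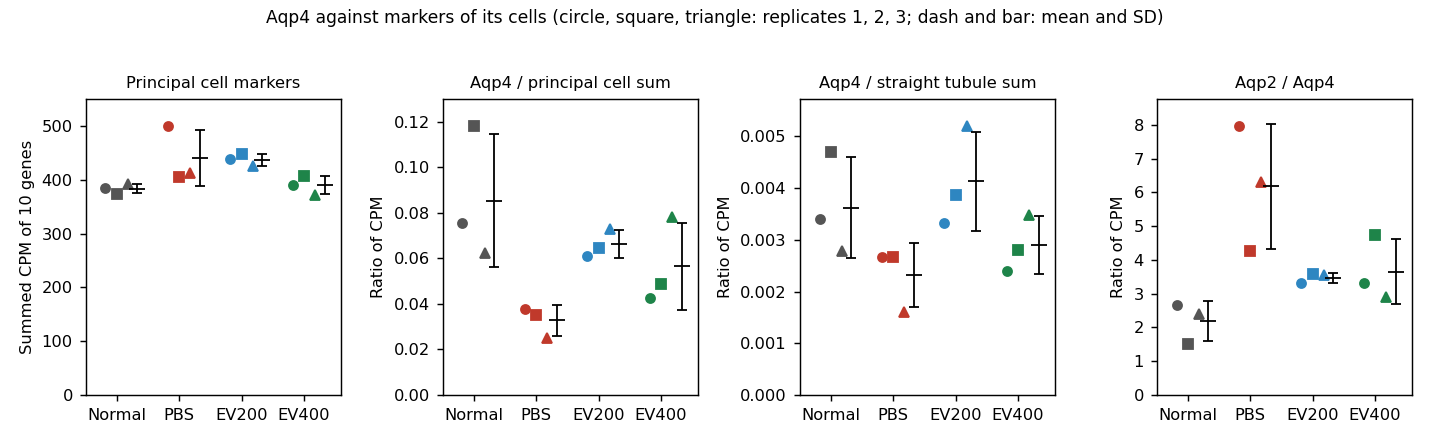
Summed CPM of 10 principal cell markers, and ratios in CPM of Aqp4 to that sum, of Aqp4 to the sum of 8 straight proximal tubule markers and of Aqp2 to Aqp4, by library with mean and SD (n = 3). The marker sums of PBS lie above those of normal through 1 gene, Npnt, and overlap without it, while Aqp4 per marker sum lies at 0.0252 to 0.0378 in PBS and 0.0623 to 0.118 in normal.

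Of the proximal tubule channels, Aqp1 and Aqp11 had lower values in every PBS library than in any normal one, without passing the test. Aqp1 (chromosome 6, 55336299 to 55348555) stood at 866.2, 945.1 and 785.8 CPM in normal, at 739.2, 472.9 and 638.6 in PBS, at 827.7, 897.4 and 754.3 in EV200 and at 702.3, 833.9 and 884.4 in EV400. All PBS libraries lay below all normal and EV200 libraries, and overlapped with EV400. The log2 fold change was -0.49 (SE 0.15, edgeR adjusted p = 0.0744) for PBS against normal, 0.42 (SE 0.15, adjusted p = 0.657) for EV200 against PBS and 0.39 (SE 0.15, adjusted p = 0.182) for EV400 against PBS. Both doses were close to normal, at -0.07 (95% interval -0.40 to 0.26) and -0.10 (-0.43 to 0.23). For PBS against normal, Aqp1 passed the test without PBS 1, at -0.64 (edgeR adjusted p = 0.0382), and was at -0.32 without PBS 2 (adjusted p = 0.228).

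Markers of the cells that hold Aqp1 differed too. The summed level of 10 proximal tubule markers ran from 16710 to 17080 CPM in normal, 9911 to 13820 in PBS, 10840 to 16040 in EV200 and 14100 to 14880 in EV400. In PBS 1 of the 10, Cubn, was called lower, beside 0.902% of all genes. Aqp1 per proximal tubule marker sum was 0.0512 ± 0.0051 in normal, 0.0496 ± 0.0034 in PBS, 0.0609 ± 0.009 in EV200 and 0.0558 ± 0.007 in EV400 (SD, n = 3), and PBS and normal overlapped on it. Erythroid genes, since red cells also carry aquaporin-1, summed to 812.1 to 988.1 CPM in normal and 336.6 to 516 in PBS. Of these 8 genes, 5 were called lower, beside 0.902% of all genes, and the defining globin genes were detected throughout. Endothelial markers summed to 387.6 to 404.3 CPM in normal and 334 to 395.2 in PBS. EdgeR called 0 of these 7, beside 2.74% of all genes. At an unadjusted p under 0.05 there were 2 of 7, beside 29.8% of all genes. The part of erythroid and endothelial cells in the Aqp1 values was not tested.

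Aqp11 encodes the channel of the endoplasmic reticulum whose loss in mice causes polycystic kidneys (chromosome 7, 97726379 to 97738247). It stood at 39.96, 42.27 and 41.17 CPM in normal, at 32.3, 20.87 and 30.42 in PBS, at 37.97, 36.88 and 27.3 in EV200 and at 35.72, 36.31 and 45.72 in EV400. Normal libraries were tightly grouped and lay above all PBS and all EV200 libraries, and all EV400 libraries lay above all PBS libraries. The log2 fold change was -0.56 (SE 0.17, edgeR adjusted p = 0.0671) for PBS against normal, 0.29 (SE 0.17, adjusted p = 0.657) for EV200 against PBS and 0.50 (SE 0.17, adjusted p = 0.158) for EV400 against PBS. The first passed the test without PBS 1 (edgeR adjusted p = 0.0421) and without EV200 3 and EV400 3 (0.0239), and it was -0.38 without PBS 2 (adjusted p = 0.215). Per proximal tubule marker sum, Aqp11 was 0.00243 ± 9.5e-05 in normal, 0.00224 ± 0.00012 in PBS, 0.00247 ± 9.1e-05 in EV200 and 0.00272 ± 0.00045 in EV400.

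Aqp7 encodes the glycerol channel of the straight proximal tubule and of adipocytes (chromosome 4, 41033074 to 41048237). It varied least of the 8, by 1.65-fold from the lowest to the highest library. It stood at 24.25, 28.9 and 23.77 CPM in normal, at 25.17, 17.54 and 22.13 in PBS, at 20.74, 23.84 and 20.78 in EV200 and at 26.56, 23.03 and 26.15 in EV400. In CPM, no pair of groups was free of overlap. The log2 fold change of PBS against normal was -0.25 (95% interval -0.53 to 0.04, edgeR adjusted p = 0.218) in counts, -0.11 without PBS 2, and 0.06 by limma on log2(TPM + 0.1). Per straight proximal tubule marker sum, Aqp7 was 0.00283, 0.00307 and 0.00271 in normal and 0.00355, 0.00329 and 0.00339 in PBS. That ratio, a description, was higher in every PBS library than in any normal one. In EV400 it was 0.00384, 0.00325 and 0.00314, also above every normal library, while EV200 overlapped with normal. PBS 3, the library with adipocyte transcripts, lay between PBS 1 and PBS 2. Of 9 adipocyte markers 4 passed the filter, and of the defining markers Adipoq and Plin1 were at 0 in all 3 normal libraries and reached 7.668 and 3.466 CPM in PBS 3, while Lep was 0.2009 CPM there. All 9 summed to 858.4 to 1154 CPM in normal, 973.9 to 1106 in PBS, 732.5 to 906.9 in EV200 and 778.6 to 1048 in EV400, nearly all of it from Lpl and Pnpla2, so this sum does not follow fat cells. The other 7 summed to 47.25 CPM in PBS 3 and to at most 1.347 CPM in any other library. Their part in Aqp7 was not tested.

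Aqp6 was the aquaporin gene that was higher in cisplatin-treated kidneys without overlap in each group. Its protein is an anion-permeable channel in vesicles of acid-secreting intercalated cells (chromosome 15, 99598468 to 99605478). It stood at 23.16, 21.96 and 18.08 CPM in normal, at 32.44, 33.9 and 24.28 in PBS, at 26.35, 36.38 and 43.82 in EV200 and at 25.7, 31.88 and 28.44 in EV400. Every library of the 3 cisplatin groups lay above every normal library. Against normal, the log2 fold change was 0.52 (SE 0.18, edgeR adjusted p = 0.0927) in PBS, 0.75 (SE 0.18, adjusted p = 0.123) in EV200 and 0.45 (SE 0.18, adjusted p = 0.679) in EV400. These 3 comparisons share the normal libraries, and none passed the test. DESeq2 called Aqp6 in PBS and in EV200 against normal (adjusted p = 0.0402 and 0.00534), and edgeR called it in EV200 without EV200 1 (adjusted p = 0.0484). In TPM the EV400 and normal libraries overlapped, at 14.72 ± 2.58 and 13.64 ± 2.51 (SD, n = 3).

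Intercalated cell markers did not share this pattern as a sum. The 10 markers summed to 430.2 to 493.8 CPM in normal, 379.4 to 505.4 in PBS, 430.1 to 558.6 in EV200 and 466.9 to 518.1 in EV400, and the defining proton pump genes Atp6v1g3, Atp6v0d2 and Atp6v1b1 were detected in every library. In PBS 1 of the 10 rose, beside 1.84% of all genes. This was Foxi1, the transcription factor gene of intercalated cells, by 0.56 on the log2 scale (edgeR adjusted p = 0.0321). In 3 of the 10 every PBS library lay above every normal one, beside 20.3% of all genes, while 7 of the 10 had a negative log2 fold change. Foxi1 and Slc4a1 did have the pattern of Aqp6, with every cisplatin library above every normal one. Slc4a1, also on the erythroid list, ran from 34.94 to 41.29 CPM in normal and from 41.73 CPM upward in the others. Aqp6 per marker sum was 0.0451 ± 0.0075 in normal, 0.0681 ± 0.02 in PBS, 0.0735 ± 0.025 in EV200 and 0.0575 ± 0.0068 in EV400 (SD, n = 3). PBS 3, at 0.0508, lay within the normal range of 0.0366 to 0.0511.

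Between vesicle groups and PBS, none of the 8 genes passed edgeR's test at either dose. For EV200 against PBS 0 of 8 were called, beside 0.016% of all genes, with 2 of 8 at an unadjusted p under 0.05 (Aqp1 and Aqp4), beside 6.9% of all genes. DESeq2 called 1 of 8, beside 0.24% of all genes, and limma-voom 2 of 8, beside 8.8%. The libraries of these 2 genes did not overlap between EV200 and PBS, beside 10.5% of all genes, and both were higher in EV200, beside 5.53%. For EV400 against PBS 0 of 8 were called, beside 0.0801% of all genes, with 3 of 8 at an unadjusted p under 0.05 (Aqp1, Aqp4 and Aqp11), beside 23.5%. DESeq2 called 0 of 8, beside 5.02% of all genes, and limma-voom 1 of 8, beside 14.6%. EV400 and PBS did not overlap in 1 gene, Aqp11, beside 26% of all genes, and it was higher in EV400, beside 12.2%. Both comparisons share the PBS libraries. Medians over the 8 genes were 0.24 for each dose, against 0.00 and -0.03 over all genes tested (log2 fold change).

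**Figure D4:**
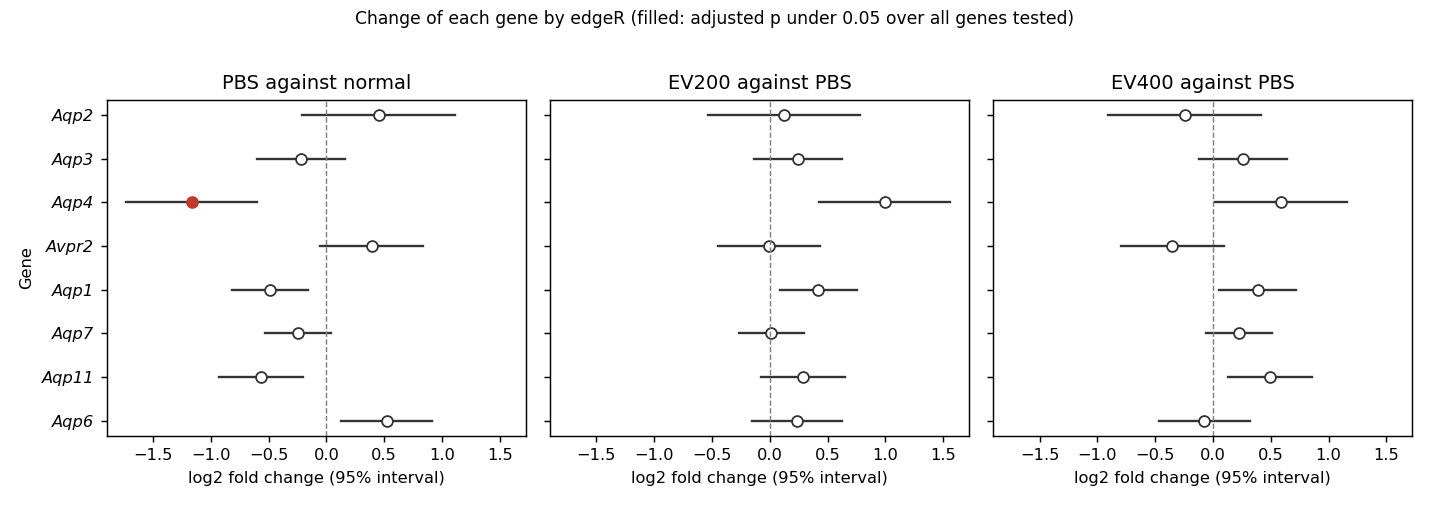
Log2 fold change of each gene by edgeR with its 95% interval, for PBS against normal, EV200 against PBS and EV400 against PBS. The filled point, Aqp4 in PBS against normal at -1.17, is the 1 value called over all genes tested. The intervals are not adjusted over genes. Against PBS they lie above 0 for Aqp1 and Aqp4 at both doses and for Aqp11 in EV400, but none of these was called. Both doses share the PBS libraries.

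Doses against each other and against normal gave no call either. EdgeR called 0 of 8 in EV400 against EV200, beside 0.00534% of all genes, while DESeq2 and limma-voom each called 0, beside 0.0747% and 0.774%. At an unadjusted p under 0.05 there were 0 of 8, beside 6.34% of all genes. Avpr2 alone did not overlap (1 of 8, beside 10.7% of all genes), and it was lower in EV400 (beside 5.57%). The log2 fold changes between the doses ran from -0.41 (Aqp4) to 0.21 (Aqp7). In EV200 against normal 0 of 8 were called, beside 0.0694% of all genes, while DESeq2 and limma-voom each called 1, beside 2.64% and 5.86%. Aqp6 had an unadjusted p under 0.05 (1 of 8, beside 13.2% of all genes). No overlap was found there in 4 of 8 genes, beside 24.9% of all genes. Aqp2, Aqp6 and Avpr2 were higher in EV200 (beside 11.9%) and Aqp11 lower (beside 12.9%). In EV400 against normal 0 of 8 were called, beside 0% of all genes, while DESeq2 called 0, beside 0.187%, and limma-voom 1 (Aqp4), beside 7.91%. Aqp4 and Aqp6 had an unadjusted p under 0.05 (2 of 8, beside 6.98% of all genes). Aqp6 alone did not overlap (1 of 8, beside 18.8% of all genes), and it was higher in EV400 (beside 8.28%). A joint test of any difference among the 4 groups called 0 of 8, beside 0.0641% of all genes, while DESeq2 called 2, beside 9.22%, and limma-voom 5, beside 35.4%. There 4 of 8 had an unadjusted p under 0.05, beside 19.7% of all genes. The smallest p of that test was 0.00423, for Aqp4.

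Spread differed between groups. Relative to its mean, PBS was the widest group for 6 of the 8 genes, with a coefficient of variation of 54.7% for Aqp2 and 36.3% for Avpr2, against 13.7% and 5.93% in normal. Aqp4 was widest in normal, at 31.8%, and Aqp6 in EV200, at 24.7%. PBS 2 had the lowest level of Aqp1, Aqp3, Aqp7, Aqp11 and Avpr2 of the 12 libraries, and it also had the lowest proximal tubule marker sum. EV200 3 combined a high summed level of 7 tubular injury markers, 469.8 CPM against 313.3 to 426.6 in PBS and 168.5 to 185.2 in normal, with Aqp4 at 31.1 CPM, inside the normal range.

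Signalling genes around the receptor were examined next. In a list of 38 genes of vasopressin and cAMP signalling, 3 rose and 0 fell in PBS against normal, beside 1.84% of all genes called higher and 0.902% called lower, and 15 of 38 had an unadjusted p under 0.05, beside 29.8%. The list's median log2 fold change was 0.09 against 0.00 over all genes. The risers were Pde3b, a phosphodiesterase gene whose product degrades cAMP, from 8.777 ± 0.98 to 14.72 ± 3.24 CPM, and the prostaglandin E2 receptor genes Ptger1 and Ptger3. Ptger1 went from 5.163 ± 0.379 to 9.585 ± 1.2 CPM and Ptger3 from 16.32 ± 1.79 to 26.63 ± 5.28 CPM (SD, n = 3). Their edgeR adjusted p were 0.0426, 0.0436 and 0.0467. Prostaglandin E2 is known to oppose the action of vasopressin in the collecting duct, in part through the receptor that Ptger3 encodes. Ptger4, another prostaglandin E2 receptor gene of the list, was not called. It went from 2.131 ± 0.179 to 5.939 ± 2.11 CPM, with every PBS library above every normal one. What these levels mean for the action of vasopressin was not tested.

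Aquaporin-2 transport genes and regulators of collecting duct identity were counted in the same way. Of 29 genes of aquaporin-2 trafficking and degradation, 1 rose and 0 fell in PBS, beside 1.84% and 0.902% of all genes. The riser was Mal, whose product binds aquaporin-2 at the apical membrane, from 124.4 ± 3.27 to 184.3 ± 24.1 CPM (edgeR adjusted p = 0.0471). Of these 29, 7 had an unadjusted p under 0.05, beside 29.8% of all genes, and the list's median was -0.07. The log2 fold change was negative in 22 of 29. Every PBS library lay below every normal one in 10 of 29, beside 20% of all genes, and above in 3 of 29, beside 20.3%. Of 22 transcription regulators of the collecting duct, 3 rose and 0 fell, beside 1.84% and 0.902% of all genes, with a median of 0.35. In this list 12 of 22 had an unadjusted p under 0.05, beside 29.8% of all genes, and in 16 of 22 every PBS library lay above every normal one, beside 20.3%. The genes that rose were Foxi1, the Notch ligand gene Jag1, from 16.09 ± 0.464 to 29.65 ± 6.54 CPM, and Gata3, a factor of principal cells, from 6.613 ± 0.346 to 10.16 ± 0.681 CPM. Neither list had a call at EV200 or EV400 against PBS by edgeR, beside 0.016% and 0.0801% of all genes. At an unadjusted p under 0.05 there were 3 of 29 and 4 of 22 for EV200, beside 6.9% of all genes. For EV400 there were 7 of 29 and 12 of 22, beside 23.5%.

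Genes that build the salt and urea gradient, which draws water through the aquaporins, had the largest share of calls among these lists. Of 21 tested genes of urine concentration and osmolyte handling, 7 rose and 0 fell in PBS, beside 1.84% and 0.902% of all genes. The median log2 fold change was 0.36, and 11 of 21 had an unadjusted p under 0.05, beside 29.8% of all genes. The 3 with the smallest p were Bsnd, the barttin subunit gene of renal chloride channels, from 36.15 ± 1.23 to 46.31 ± 1.77 CPM, Slc14a1, the urea transporter B gene, from 1.107 ± 0.15 to 4.775 ± 2.33 CPM, and Kcnj1, the ROMK potassium channel gene, at 0.47 on the log2 scale. Their edgeR adjusted p were 0.0355, 0.0379 and 0.0379. Bsnd was also called in EV200 against normal, at 48.07 ± 1.18 CPM (edgeR adjusted p = 0.0408). No gene of the table was called in PBS against normal without normal 1, normal 2 or normal 3, and 1 and 79 were without PBS 2 and PBS 3, so these calls share the limits of Aqp4.

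Inner medullary genes varied widely between libraries. The 8 markers of inner medulla and thin limb summed to 151.5 to 189.1 CPM in normal, 189 to 275.9 in PBS, 234.6 to 343.1 in EV200 and 143.6 to 205.2 in EV400. In PBS 1 of the 8, Krt19, was called higher, beside 1.84% of all genes. The defining marker Slc14a2, the vasopressin-regulated urea transporter A gene, stood at 12.77, 12.48 and 3.28 CPM in normal, at 63.73, 74.75 and 22.29 in PBS, at 50.22, 51.21 and 90.34 in EV200 and at 6.634, 34.74 and 28.54 in EV400. All PBS libraries lay above all normal ones (edgeR adjusted p = 0.0545). Krt19 did not follow Slc14a2 in every library, so its call does not stand for the list. In EV400 3 it was at 0.4405 CPM, inside its normal range of 0.3188 to 1.038, while Slc14a2 was above every normal library. In EV400 1 Krt19 was at 5.404 CPM, above normal, while Slc14a2 was inside its normal range. EV400 1 was lowest of the cisplatin libraries for both Slc14a2 and Aqp2. Thick ascending limb markers, with 3 of 7 called higher (beside 1.84% of all genes), summed to 3771 to 4255 CPM in normal and 4489 to 5503 in PBS. These 3, Kcnj1, Slc12a1 and Cldn16, are also among the 7 called in the urine concentration list. Urothelial markers, since urothelium also expresses Aqp3, summed to 1.833 to 3.405 CPM in normal and 10.38 to 24.39 in PBS. Of these 7 markers, 2 were called higher, beside 1.84% of all genes. Macrophage markers, since leukocytes express Aqp9, summed to 125.9 to 142.7 CPM in normal and 227.7 to 384.2 in PBS. Of these 7 markers, 3 were called higher, beside the same 1.84%. The part of these cells in the values of the aquaporins and of the urine concentration genes was not tested. Nor was that of how much medulla each sample held.

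Among the scarce aquaporins 3 of 5 were tested and none was called by edgeR in any of the 6 comparisons. Aqp9 averaged 0.08771 ± 0.0492 CPM in normal, 0.5457 ± 0.193 in PBS, 0.2334 ± 0.197 in EV200 and 0.1001 ± 0.0624 in EV400, with every PBS library above every normal one (edgeR adjusted p = 0.0586). Aqp8, a channel of inner membranes, averaged 1.117 ± 0.165, 1.35 ± 0.222, 1.149 ± 0.148 and 0.5322 ± 0.248 CPM in the same order of groups. All EV400 libraries lay below all other libraries for Aqp8, with an edgeR adjusted p of 0.118 against PBS.

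The genes most like each of the 8 across the 12 libraries were ranked by Pearson's r of log2 CPM among 10678 genes with a mean of at least 5 CPM. The r values are descriptions, since the libraries share groups and differ in tissue makeup. Aqp11 had the closest neighbours, with r of 0.99 for Plekhb2, Acat1 and Hadh, the last of which are mitochondrial enzyme genes of ketone and fatty acid metabolism. Aqp1 was closest to Itpk1, Bdh1 and Tex264 (r of 0.97, 0.97 and 0.97), Aqp7 to Wdr83os, Tmem176a and Rpusd3 (0.95, 0.93 and 0.93) and Aqp3 to Mpi, Commd4 and Gtf2h5 (0.95, 0.95 and 0.95). Aqp6 was closest to Slc4a1, the anion exchanger gene of acid-secreting intercalated cells, at 0.95 (Spearman's rank correlation 0.94), followed by Sgpp2 and Cd59a. Aqp2 was closest to the endolysosomal channel gene Mcoln3 at 0.91 (rank correlation 0.96), followed by P2rx5 and Mfsd4a. Avpr2 was closest to Bspry at 0.92 and Aqp4 to the potassium channel gene Kcnt1 at 0.87 (rank correlation 0.82), the lowest top value of the 8.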

How the data were processed

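Counts, FPKM and TPM per gene were deposited by the authors in 1 table. HISAT2 2.1.0, StringTie 2.1.3b, Trimmomatic 0.38 and FastQC 0.11.7 are named beside mm10 and GRCm38 as genome builds, per the submitters' processing notes. Which program counted, with which strand option and gene models, was not given in the sources used here. Libraries came from a strand-specific poly(A) kit, per the labels' protocols. The deposited read counts were whole numbers and were tested as they stand. The deposited TPM values, scaled by the authors to transcript length and to a fixed total, served to rank genes by level and for 1 alternative. The 12 deposited FPKM columns were not used.

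All 12 libraries entered 1 fit of edgeR 4.0.16 in R 4.3.3 (quasi-likelihood test, TMM factors, default filter by group, 8 residual degrees of freedom), which kept 18730 genes. A gene was called at a Benjamini-Hochberg adjusted p under 0.05 over all of them. The 95% intervals use the SE and the t quantile of the fit. Alternatives were DESeq2 1.42.0 and its size factors, limma 3.58.1 (voom), other filters, the replicate number as a block, the compared groups alone and each library left out. Limma on log2(TPM + 0.1), the omission of EV200 3 and EV400 3, and marker sums without their dominant genes were chosen after seeing the data. Shares called by DESeq2 are of all 18730 genes, those without an adjusted p included. The code was tested on simulated data. The 8 genes, lists and tests were chosen with earlier results of these data known. The naming rule took all 8 genes, up to 3 called genes per pathway list and comparison, the defining markers of cell types, and the 3 genes most like each of the 8. Adipoq as a check of 1 library, Arhgap4, Ptger4 and genes given for counts of 5 or fewer lie outside it. Osp94, of the urine concentration list, was not matched to the table by its symbol.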

Additional observations from a re-analysis of the deposited data

How the results depend on the processing

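Of 720 alternative values for the 48 log2 fold changes of the 8 genes, 656 kept their direction and side of the threshold, 7 lost a call, 18 gained one and 39 changed sign. All 7 losses were Aqp4 in PBS against normal.

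The number of the 8 genes called in PBS against normal, 1 at first, was 4 by DESeq2, 4 by limma-voom, 2 without EV200 3 and EV400 3, 0 by limma on log2(TPM + 0.1), and 0 to 4 with 1 library left out. The other comparisons had 0. EV200 against PBS gave 1 by DESeq2 and 2 by limma-voom, and EV400 against PBS 1 by limma-voom. EV200 against normal gave 1 by DESeq2, 1 by limma-voom and 0 to 1 with 1 library left out, and EV400 against normal 1 by limma-voom. The joint test gave 2 by DESeq2 and 5 by limma-voom. The cause of these differences was not tested.

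With the replicate number as a block, 0 of 8 were called in PBS against normal, with Aqp4 at -1.15 (adjusted p = 0.0899), and 0 of all genes against 514. Of 18 same-numbered pairs, 2 had a correlation of deviations over 0.1, and the values ran from -0.385 to 0.344. Pairs with different numbers were not set beside them, so this cannot decide whether the numbers pair the libraries.

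Over all genes, calls in PBS against normal were 514, and 0 to 6164 under the alternatives (299 without a filter, 824 with a stricter one, 2835 by DESeq2, 1449 in the compared groups alone, 2277 without PBS 1). They were 3 for EV200 against PBS (0 to 1649), 15 for EV400 against PBS (0 to 2731), 1 between the doses (0 to 145), 13 for EV200 against normal (2 to 1098), 0 for EV400 against normal (0 to 1481) and 12 in the joint test (0 to 6634).

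No value that changed sign was called by edgeR. The one farthest from 0 was Aqp2 in PBS against normal, at 0.45. With 1 library left out, the ranges were -0.10 to 0.69 for Aqp2 in PBS against normal. For EV200 against PBS they were -0.10 to 0.67 for Aqp2, -0.11 to 0.14 for Aqp7 and -0.24 to 0.29 for Avpr2. For EV400 against PBS they were -0.47 to 0.30 for Aqp2 and -0.21 to 0.02 for Aqp6. Between the doses they were -0.101 to 0.056 for Aqp1 and -0.051 to 0.076 for Aqp3. For EV200 against normal they were -0.118 to 0.013 for Aqp1 and -0.33 to 0.12 for Aqp4. For EV400 against normal they were -0.154 to 0.004 for Aqp1, -0.015 to 0.112 for Aqp3, -0.057 to 0.087 for Aqp7 and -0.17 to 0.01 for Aqp11. By limma on log2(TPM + 0.1), Aqp7 had 0.062 in PBS against normal, -0.13 in EV200 against PBS and -0.085 in EV400 against PBS, Aqp3 had -0.125 between the doses and Aqp1 0.04 in EV200 against normal. By limma-voom, Aqp6 had 0.07 in EV400 against PBS, Aqp1 0.023 in EV200 against normal, and Aqp2, Aqp3 and Aqp7 -0.097, -0.054 and 0.022 in EV400 against normal, with Aqp3 at -0.112 between the doses. Without EV200 3 and EV400 3, Avpr2 had 0.001 in EV200 against PBS, Aqp3 and Aqp11 -0.054 and -0.051 between the doses, Aqp1 0.009 in EV200 against normal and Aqp3 -0.015 in EV400 against normal. Avpr2 in EV200 against PBS was 0.001 without a filter and 0.021 with the replicate block. The cause of these changes of sign was not tested.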
